A study of Mus musculus with 8 samples.

Results

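The muscle miRNAs miR-1, miR-133a and miR-206 were followed through 8 small RNA libraries of mouse liver. The members are the 4 names miR-1a-3p, miR-1b-5p, miR-133a-3p and miR-206-3p, chosen by name among the 862 miRNA names listed in any library, and all 4 were found. They hold 3 distinct sets of reads, since miR-1a-3p and miR-1b-5p carried the same reads. The mice were C57BL/6J males of 8 weeks at the start, kept on their diet for 12 weeks. Calorie-restricted (CR) mice had their food cut by 20% in the first week and by 40% in the other 11 weeks, and control mice ate ad libitum (AL). The groups were CR mitochondria (3 libraries), AL mitochondria (3 libraries), whole liver under CR (1 library) and whole liver under AL (1 library). Each whole-liver library pooled the RNA of 3 samples. The mitochondria were isolated by differential centrifugation and purified as mitoplasts, which lack the outer membrane. Nothing in the labels ties the mitochondrial replicates to separate mice, so the p-values cover the spread from library to library, which may be technical.

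These miRNAs are the best known miRNAs of striated muscle. miR-1 and miR-133a are made from shared primary transcripts switched on by the muscle transcription factors SRF, MEF2 and MyoD. miR-1 promotes muscle differentiation and miR-133a is best known for holding muscle precursors in proliferation, while miR-206, the skeletal muscle relative of miR-1, has the same seed and largely the same targets. In mouse muscle cells miR-1 has been described inside mitochondria, where it raises the translation of transcripts of the mitochondrial genome. Hepatocytes are not known as a main source of any of them.

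The sequences show which reads can be told apart. miR-206-3p is shown as the relative of miR-1, miR-133b-3p as the near copy of miR-133a-3p, and miR-499-5p as the heart and slow-muscle miRNA of the Myh7b gene. The last 2 sequences, miR-1981-5p and miR-542-3p, are names outside the muscle family whose levels followed miR-1a-3p and miR-133a-3p most closely. Each is a mature sequence from RefSeq (GRCm38.p6), written 5′ to 3′, with the seed (bases 2 to 8) in capitals.
miR-206-3p: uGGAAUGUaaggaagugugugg
miR-133b-3p: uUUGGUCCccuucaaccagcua
miR-499-5p: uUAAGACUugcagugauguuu
miR-1981-5p: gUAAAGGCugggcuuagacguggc
miR-542-3p: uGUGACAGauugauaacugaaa
Of the 4 members, 1 matched a mature RefSeq entry by name, and its sequence was identical to the deposited one.

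The seed GGAAUGU was found in 2 of the listed names, miR-1a-3p and miR-206-3p, whose 22-base sequences are identical at 18 positions. The seed UUGGUCC was also found in 2 names, miR-133a-3p and miR-133b-3p, identical at 21 of 22 positions, so a read with 1 mismatch could be placed under either. The seeds of miR-1981-5p and miR-542-3p differ from both. By RefSeq's coordinates (GRCm38.p6) miR-1981-5p lies on the minus strand of chromosome 1 at 184822465 to 184822488, and miR-542-3p on the minus strand of chromosome X at 53049415 to 53049436. On GRCm38 (GENCODE M21), the Mir1a-1 hairpin lies on chromosome 2 at 180389048 to 180389124 and the Mir133a-2 hairpin at 180398379 to 180398482 of the same strand, with no annotated gene around either. A second copy of each hairpin, Mir1a-2 and Mir133a-1, lies on chromosome 18 within introns of Mir133a-1hg on the same strand. Both also lie within introns of Mib1, but on the strand opposite to it. The Mir1b hairpin lies opposite to Mir1a-2, in an intron of Mib1 and on its strand. The mature miR-1a-3p and miR-133a-3p reads cannot be assigned to 1 of their copies. The Mir206 hairpin lies on chromosome 1 at 20679010 to 20679082 and the Mir133b hairpin at 20682769 to 20682887, both within exons of the long non-coding RNA Gm28653. The Mir499 hairpin lies in an intron of the myosin gene Myh7b, on chromosome 2 at 155622880 to 155622958.

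The names miR-1a-3p and miR-1b-5p are antisense to each other. All 21 bases of miR-1b-5p are complementary to miR-1a-3p, and both names were listed with 708 reads over the 8 libraries and the same number in each library. The opposite arms, miR-1a-2-5p and miR-1b-3p, complementary over 21 bases, likewise shared their reads, 1 in CR mitochondria replicate 3 and 1 in the AL pool. Of 31 pairs of listed names that are complementary over at least 18 bases, 12 had identical reads in all 8 libraries. Among the 13 such pairs with at least 50 reads under each name, 3 were identical and 10 were not. Most of these 10 still held similar reads, such as miR-126a-5p and miR-126b-3p (19560 and 19559) or miR-24-3p and miR-3074-5p (15243 and 14874). The pairs miR-126a-3p and miR-126b-5p (150391 and 1248) and miR-30e-3p and miR-30f (2825 and 1580) differed widely. Whether strand was used in the counting is not given in the sources used here, so the values of miR-1a-3p and miR-1b-5p are a single measurement, given once below as miR-1a-3p.

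The deposited unit is RPM, the reads of each library scaled to a total of 1000000. The whole-liver pools held 3242002 (CR) and 2431564 (AL) miRNA reads and the mitochondrial libraries 1070762 to 1577691. A limit of 3 reads was worth 1.90 to 2.80 RPM in mitochondria and 0.925 (CR) and 1.23 RPM (AL) in the pools. Intervals and limits cover counting error only. The hepatocyte miRNA miR-122 (both arms) summed to 252331 to 581251 RPM in CR mitochondria, 379611 to 452992 RPM in AL mitochondria, 263488 RPM in the CR pool and 255017 RPM in the AL pool. It was lowest in CR replicate 2 among the CR mitochondria and highest in AL replicate 2 among the AL mitochondria.

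miR-1a-3p had the most reads of the members in every library. In CR mitochondria it stood at 15.8, 119 and 54.2 RPM in replicates 1, 2 and 3 (19, 188 and 58 reads), and in AL mitochondria at 15.7, 147 and 69.6 RPM (17, 161 and 99 reads). The CR pool held 33.0 RPM (107 reads) and the AL pool 24.3 RPM (59 reads). In both diets replicate 2 was the highest mitochondrial library and replicate 1 the lowest, the diets overlapped almost completely, and both pools lay inside the mitochondrial range. Highest over lowest was 7.53-fold within CR mitochondria and 9.37-fold within AL mitochondria. Counting error does not span this: the exact 95% Poisson interval was 103 to 137 RPM in CR replicate 2 and 9.52 to 24.7 RPM in CR replicate 1, and 125 to 172 RPM in AL replicate 2 and 9.14 to 25.1 RPM in AL replicate 1.

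miR-133a-3p had the same pattern with 7.38 to 13.4 reads of miR-1a-3p for each of its reads. It stood at 1.67, 10.1 and 5.60 RPM in CR mitochondria (2, 16 and 6 reads) and at 1.85, 11.0 and 6.33 RPM in AL mitochondria (2, 12 and 9 reads). The pools held 2.47 RPM under CR and 3.29 RPM under AL (8 reads each). Replicate 2 was again the highest and replicate 1 the lowest in each diet. The replicate 1 values rest on 2 reads each, with intervals of 0.202 to 6.02 RPM (CR) and 0.224 to 6.67 RPM (AL). They overlap those of replicate 2, 5.80 to 16.5 RPM (CR) and 5.66 to 19.1 RPM (AL).

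miR-206-3p was at the edge of detection. CR mitochondria held 0, 0 and 2 reads (1.87 RPM in replicate 3) and AL mitochondria 1, 3 and 4 reads (0.923, 2.74 and 2.81 RPM). Both pools held 0 reads, with exact 95% Poisson upper bounds of 1.14 RPM under CR and 1.52 RPM under AL. Its 10 reads thus came from 4 of the 6 mitochondrial libraries, none of which held more than 4.

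**Figure D1:**
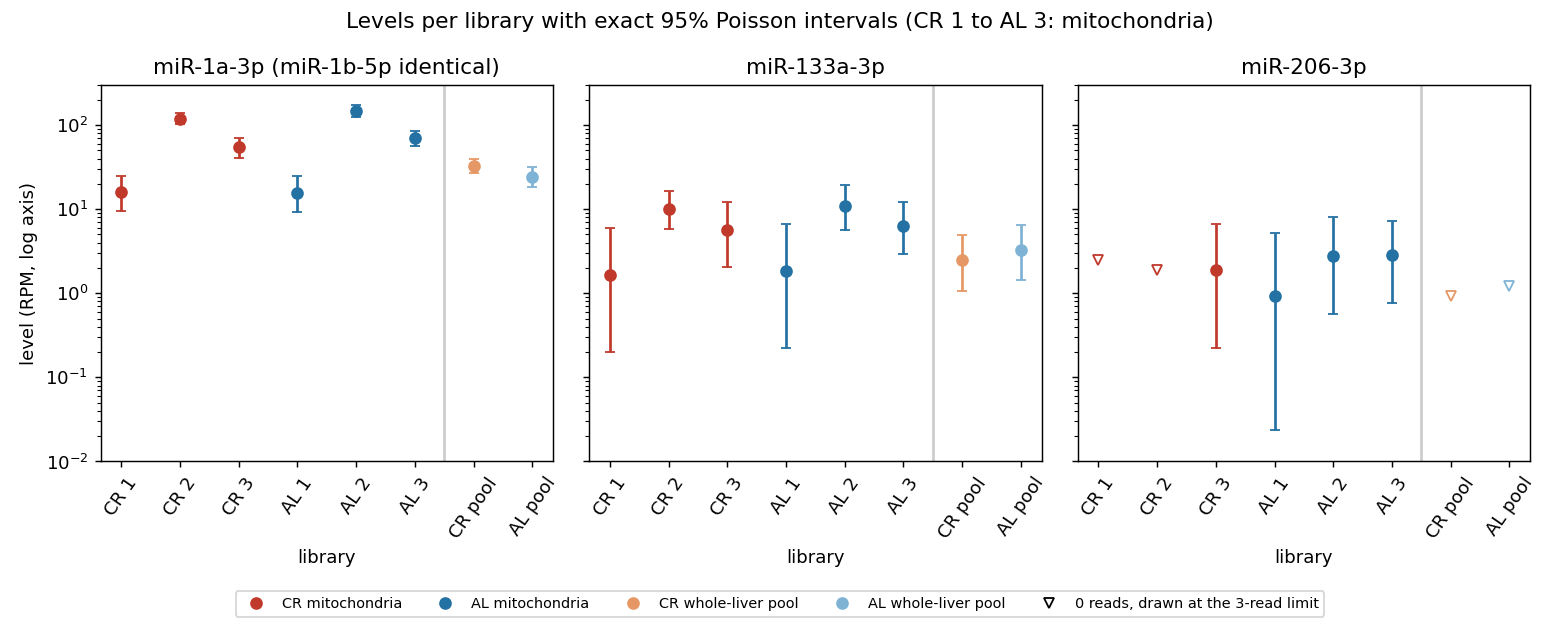
Level of each member (RPM, log axis) in the 6 mitochondrial libraries (CR 1 to AL 3) and the 2 whole-liver pools, with exact 95% Poisson intervals as bars and open triangles at the 3-read limit where a library held 0 reads. miR-1a-3p ran from 15.8 to 119 RPM in CR mitochondria and from 15.7 to 147 RPM in AL mitochondria, with replicate 2 highest in both, and miR-133a-3p followed it at a lower level.

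The proportion of miR-133a-3p to miR-1a-3p stayed within counting error across libraries in which the level of miR-1a-3p did not. Both mature sequences are 22 bases long but identical at only 4 positions, and how evenly the 2 were captured was not tested. The proportion is thus one of reads, compared between libraries, and not a ratio of molecules. miR-133a-3p made up 9.52%, 7.84% and 9.38% of the reads of both names in CR mitochondria, 10.5%, 6.94% and 8.33% in AL mitochondria, 6.96% in the CR pool and 11.9% in the AL pool. Each library's exact 95% Clopper-Pearson interval overlapped those of all others, since the highest lower bound was 5.30% and the lowest upper bound 11.8%. Over all mitochondrial reads the share was 7.98% (5.92% to 10.5%, 47 of 589 reads), and over both pools 8.79% (5.11% to 13.9%, 16 of 182 reads). At these read numbers no difference in the proportion was detectable between libraries.

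**Figure D2:**
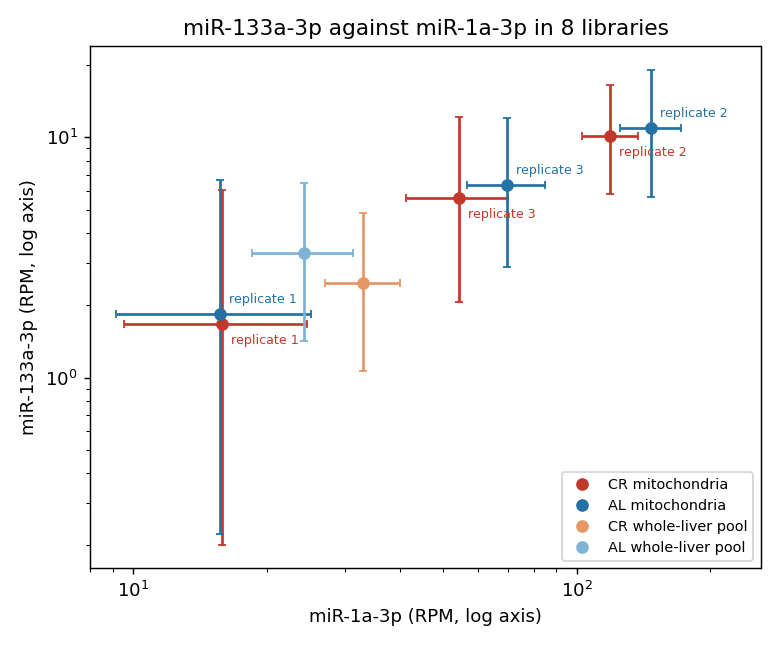
miR-133a-3p against miR-1a-3p (RPM, both axes log) in 8 libraries, with exact 95% Poisson intervals. The same-numbered CR and AL mitochondrial libraries lie beside each other, replicate 1 at 15.8 and 15.7 RPM of miR-1a-3p and replicate 2 at 119 and 147 RPM, and the pools lie between replicates 1 and 3.

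The spread of miR-1a-3p between replicates was among the widest of the series. The SD of log2(RPM + 1) within the mitochondrial diet groups was 1.52 (1.43 in CR and 1.60 in AL mitochondria), against a median of 0.46 over the 225 names with a mean of at least 10 RPM. Of these names 1 had a wider spread, the pancreatic islet miRNA miR-375-3p (1.74), named after its value was seen, and miR-1981-5p had 1.28. miR-133a-3p had an SD of 1.05, above 92.3% of all 391 tested names, and miR-206-3p 0.74. Low names carry more counting error, while the log2(RPM + 1) scale understates their changes. What each adds to the SDs of miR-133a-3p and miR-206-3p was not tested.

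**Figure D3:**
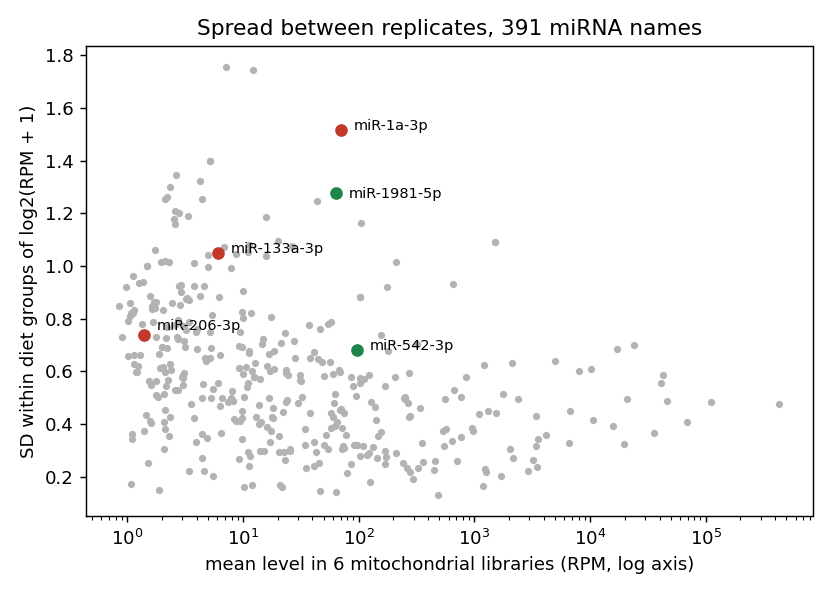
SD of log2(RPM + 1) within the mitochondrial diet groups against the mean level (RPM, log axis) of 391 miRNA names, with members in red and the names that followed them in green. miR-1a-3p lies near the top, at an SD of 1.52 against a median of 0.46 for names of at least 10 RPM, with miR-1981-5p (1.28) among the names of like level closest to it.

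The first comparison asked whether the members differ between the diets in liver mitochondria. None did beyond the spread between libraries. miR-1a-3p averaged 63.0 ± 52.2 RPM in CR mitochondria and 77.4 ± 66.0 RPM in AL mitochondria (SD, n = 3 each), and miR-133a-3p averaged 5.80 ± 4.24 RPM under CR and 6.38 ± 4.56 RPM under AL (SD, n = 3 each). miR-206-3p averaged 0.623 ± 1.08 RPM under CR and 2.16 ± 1.07 RPM under AL (SD, n = 3 each), all within a few reads.

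By limma-trend on log2(RPM + 1), the CR minus AL difference of miR-1a-3p was -0.22 (SE 0.69, 95% interval -1.67 to 1.24, adjusted p = 0.922). This interval, from a fit without a replicate block, spans changes of more than 2-fold either way, so similar levels are not shown. For miR-133a-3p the difference was -0.12 (SE 0.63, -1.45 to 1.22, limma adjusted p = 0.967), and for miR-206-3p -1.09 (SE 0.64, -2.42 to 0.25, limma adjusted p = 0.499). The median over all 391 tested names was -0.17 as deposited and 0.03 after scaling by DESeq2 size factors. Relative to the deposited median, the differences were -0.04 for miR-1a-3p, 0.06 for miR-133a-3p and -0.91 for miR-206-3p. Of all tested names 0.512% passed an adjusted p of 0.05, and 0 of the members did. On the recovered reads edgeR passed 1.79%, limma-voom 1.28% and DESeq2 2.81% of names, again with 0 of the members. The diet groups did not overlap in 19.4% of tested names and overlapped in each member. The direction for miR-1a-3p turned without CR replicate 1 (0.54) or AL replicate 2 (0.49) and was -1.09 without AL replicate 1, and that of miR-133a-3p turned without CR replicate 1 (0.45) or AL replicate 2 (0.35). It also turned with scaling or tool, for miR-1a-3p with DESeq2 size factors (0.0198) and limma-voom (0.0336). For miR-133a-3p it turned with TMM factors, DESeq2 size factors, edgeR, DESeq2 and limma-voom (0.0220 to 0.161).

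The second comparison set mitochondria against whole liver, to see whether the members' levels differ between the fraction and the tissue. The mitochondrial mean of miR-1a-3p was 1.91 times the pool's level under CR and 3.19 times under AL, and that of miR-133a-3p 2.35 times under CR and 1.94 times under AL. Without replicate 2 the ratios were 1.06 (CR) and 1.76 (AL) for miR-1a-3p and 1.47 (CR) and 1.24 (AL) for miR-133a-3p. Without replicate 1 they were 2.63 (CR) and 4.46 (AL) for miR-1a-3p and 3.19 (CR) and 2.63 (AL) for miR-133a-3p. In each diet 2 of 3 mitochondrial libraries lay above the pool and replicate 1 lay below it, for both names. In bulk samples, fewer cells of a type and less RNA per cell cannot be told apart, and whether the reads of the mitochondrial fraction came from inside mitochondria was not tested.

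In the limma-trend fit of all 8 libraries, which held diet as a covariate, the mitochondria minus whole liver difference was 0.82 for miR-1a-3p (SE 0.67, 95% interval -0.58 to 2.22, adjusted p = 0.363) and 0.65 for miR-133a-3p (SE 0.61, -0.62 to 1.92, adjusted p = 0.428). It was 0.53 for miR-1a-3p and 0.42 for miR-133a-3p without CR replicate 2, and 0.47 and 0.44 without AL replicate 2. It rose to 1.20 and 0.91 without CR replicate 1, and to 1.21 and 0.92 without AL replicate 1, in the same order. miR-206-3p had 1.05 (SE 0.61, limma adjusted p = 0.203), but it entered the test through mitochondrial libraries alone, so it had to stand higher there. The median of all 417 tested names was -0.31 as deposited and 0.01 with TMM factors, and relative to the deposited median miR-1a-3p stood at 1.13 and miR-133a-3p at 0.95. In this comparison 32.1% of all tested names passed and 0 of the members did. Mitochondrial libraries and pools did not overlap in 42.0% of tested names, and overlapped in each member. On the recovered reads, edgeR's quasi-likelihood test passed miR-1a-3p (log2 difference 1.69, adjusted p = 0.0483) where it called 40.0% of all names. limma-voom (1.28, adjusted p = 0.128) and DESeq2 (1.57, adjusted p = 0.197) did not pass it, with 42.2% and 35.7% of names called. miR-206-3p passed edgeR (adjusted p = 0.0297) and limma-voom (adjusted p = 0.0152), with both pools at 0. The test assumes that the pools vary like the mitochondrial libraries.

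The diet difference itself was not shown to differ between the fractions. The interaction, as the log2 difference of CR minus AL in mitochondria less that in whole liver, was -0.64 for miR-1a-3p (SE 1.38) and 0.19 for miR-133a-3p (SE 1.29), each with a limma adjusted p of 0.998. Of the 417 names 0 passed by limma-trend, edgeR, limma-voom or DESeq2, with 5, 18, 13 and 8 names at an unadjusted p under 0.05 in that order. Without a filter on low levels, limma-trend passed 129 names and no member. Each whole-liver arm is 1 pool, and the direction turned for miR-1a-3p without CR replicate 1 (0.11) or AL replicate 2 (0.0589), and for miR-133a-3p without CR replicate 2 (-0.28) or AL replicate 1 (-0.38).

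In the whole-liver pools, the CR over AL ratio of miR-1a-3p was 1.36 (33.0 and 24.3 RPM; exact 95% interval 0.981 to 1.90) and that of miR-133a-3p 0.750 (2.47 and 3.29 RPM; 0.245 to 2.29). Both intervals include 1 on the deposited scale. That of miR-1a-3p does not after scaling by TMM factors (ratio 1.68, 1.21 to 2.35) or DESeq2 size factors (1.52, 1.10 to 2.13), so the call depends on the scaling. With 1 pool per diet, the ratios have no replicate check. Of 243 names with at least 10 RPM in a pool, 13.2% stood at least 2-fold apart in either direction, and miR-1a-3p did not.

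**Figure D4:**
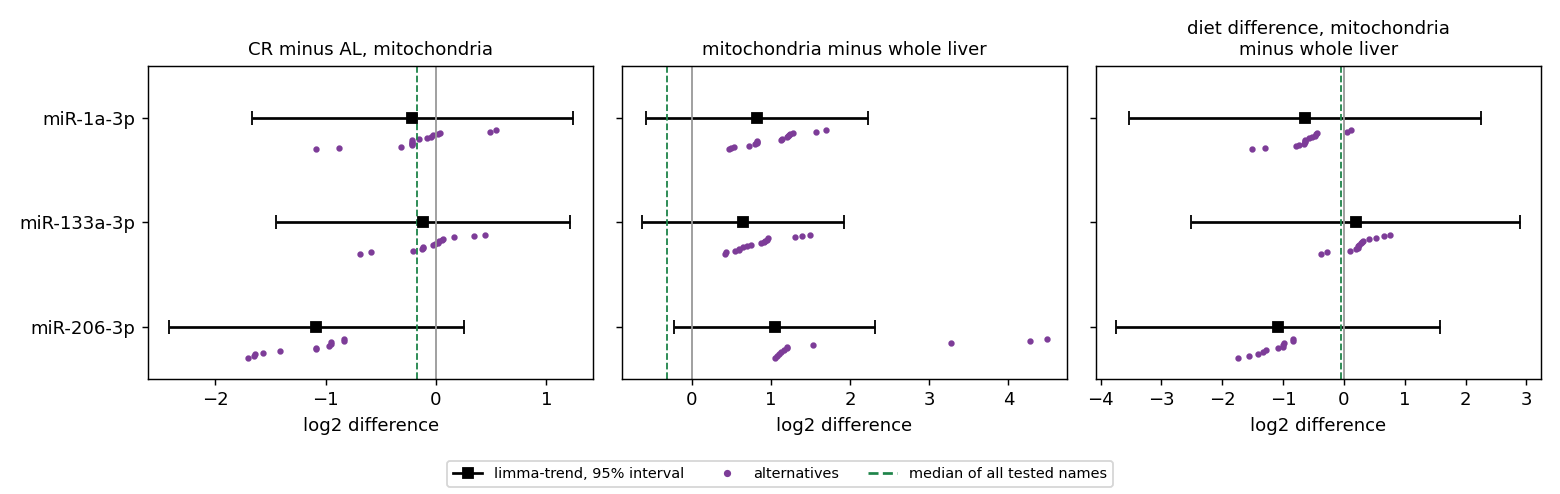
Log2 differences of the members from limma-trend (squares, with 95% intervals as bars) for CR minus AL in mitochondria, mitochondria minus whole liver, and the difference between the diet differences, with the alternatives as small dots and the median of all tested names as a dashed line. Every interval crosses 0, and in the diet panel the dots of miR-1a-3p run from -1.09 to 0.54.

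The other striated muscle miRNAs were nearly absent. miR-133b-3p, processed from the Mir206 primary transcript, held 3 reads in all, 1 in CR mitochondria replicate 2 and 2 in the CR pool. miR-499-5p held 1, 3 and 1 reads in CR mitochondria, 1, 2 and 0 in AL mitochondria, 8 in the CR pool (2.47 RPM) and 2 in the AL pool (0.823 RPM). The exact 95% interval of its CR over AL ratio in the pools, 0.599 to 29, included 1. Its mitochondria minus whole liver difference was -0.36 (SE 0.57, limma adjusted p = 0.636). The heart miRNAs miR-208a and miR-208b, made from myosin heavy chain genes, were listed in no library. The 3-read limit over all 13123767 reads was 0.229 RPM. The passenger arms miR-1a-1-5p, miR-1a-2-5p and miR-1b-3p held 1 or 2 reads each over the 8 libraries.

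miR-486, a miRNA of muscle and red blood cells, did not show the order of miR-1a-3p in both diets. Its arm miR-486a-5p stood at 19.2, 15.2 and 7.47 RPM in CR mitochondria and at 14.8, 30.1 and 15.5 RPM in AL mitochondria, with 7.71 RPM in the CR pool and 9.46 RPM in the AL pool. It was highest in replicate 1 under CR and in replicate 2 under AL. miR-486a-3p and miR-486b-3p are each complementary to miR-486a-5p over 20 bases and held similar reads, 171 and 165 against 174. Of the muscle list, 12 names were listed and 7 tested between the diets in mitochondria, with 0 past the threshold (limma adjusted p 0.499 to 0.967), beside 0.512% of all tested names, and a median of -0.39, against -0.17 over all tested names. Against whole liver 8 were tested, with 0 past the threshold (limma adjusted p 0.194 to 0.636), beside 32.1% of all tested names, and a median of 0.82, against -0.31 over all. In both comparisons miR-1a-3p and miR-1b-5p are 1 measurement, as are to a large part the 3 miR-486 names. Each count of 0 and each median of the list thus rests on few separate measurements. The list median of 0.82 is the value of miR-1a-3p, entered under both names, and that of -0.39 is the value of miR-486a-3p. Neither shows a shift of the list as a whole.

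Marker miRNAs of cell types were summed per library beside the members. The 5 miRNAs taken as defining striated muscle were miR-133b, miR-206, miR-208a, miR-208b and miR-499, so the list includes the member miR-206. Of the 5, 3 were listed. Their sum was 0.833 to 2.80 RPM in CR mitochondria, 1.85 to 4.57 RPM in AL mitochondria, 3.08 RPM in the CR pool and 0.823 RPM in the AL pool. It rests on few reads in each library. In AL mitochondria miR-206-3p made up 2.74 of 4.57 RPM in replicate 2 and all of the 2.81 RPM in replicate 3. The smooth muscle and stellate cell list (6 of 6 listed), led by miR-143, summed to 25662 to 44663 RPM in CR mitochondria, 35622 to 47454 RPM in AL mitochondria, 15881 RPM in the CR pool and 14710 RPM in the AL pool. It was highest in replicate 2 under CR and in replicate 3 under AL, and lowest in replicate 1 in both. The endothelial miR-126a summed to 6707 to 18066 RPM in CR mitochondria and 6694 to 9437 RPM in AL mitochondria, with its highest value in CR replicate 2, and to 14978 RPM in the CR pool and 19607 RPM in the AL pool.

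Erythroid markers (2 of 2 listed) were at 31.1 to 60.0 RPM in CR mitochondria and 26.0 to 52.6 RPM in AL mitochondria. Among the mitochondrial libraries of each diet they were highest in replicate 1, where miR-1a-3p was lowest. The CR pool held 69.4 RPM of them, more than any mitochondrial library, and the AL pool 36.2 RPM. Leukocyte markers (4 of 4 listed) were at 199 to 264 RPM in CR and 273 to 422 RPM in AL mitochondria. They were at 324 RPM in the CR pool and 403 RPM in the AL pool. Pancreas markers (4 of 4 listed) reached 98.9 RPM in CR mitochondria replicate 2, against 2.47 to 6.99 RPM in CR replicates 1 and 3 and the pools and 2.11 to 5.48 RPM in AL mitochondria. AL replicate 2, which held the most miR-1a-3p, had 5.48 RPM of them. Of the neuronal markers miR-124 was at 0 in all libraries and miR-9 summed to at most 8.22 RPM. Among the mitochondrial libraries of each diet the miR-9 sum was highest in replicate 2 (4.44 RPM under CR and 8.22 RPM under AL), on few reads. It was lowest in replicate 3 of each diet, unlike miR-1a-3p. The part of these cell types in the members' levels was not tested.

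**Figure D5:**
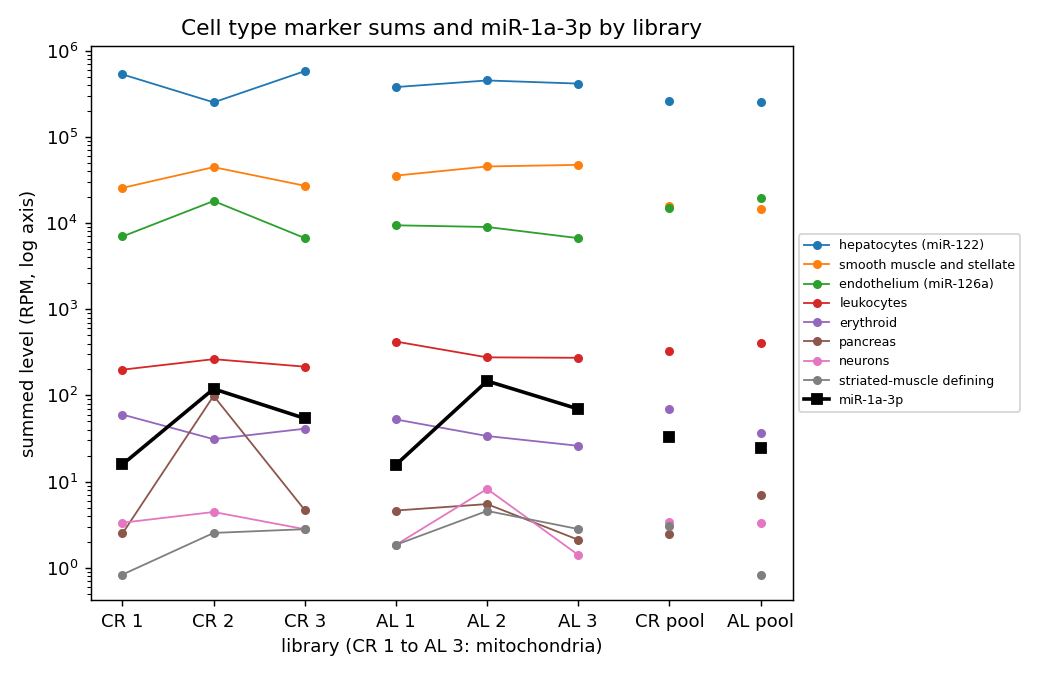
Summed level of cell type marker miRNAs (RPM, log axis) per library, with miR-1a-3p in black and lines joining the replicates of a diet only to guide the eye. miR-1a-3p ran from 15.8 to 119 RPM in CR and from 15.7 to 147 RPM in AL mitochondria, while the hepatocyte sum stayed between 252331 and 581251 RPM and the pancreas sum stood out in CR replicate 2 (98.9 RPM).

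The names with the most similar pattern were taken by Pearson's r of log2(RPM + 1) over the 8 libraries, as a description of points that share library, scale and depth. For miR-1a-3p, after its twin miR-1b-5p, these were miR-133a-3p (r = 0.98) and miR-1981-5p (0.96). For miR-133a-3p, after both of these miR-1 names, it was miR-542-3p (0.97), a miRNA of an X-linked cluster known for slowing the cell cycle. For miR-206-3p they were the antisense pair miR-338-3p and miR-3065-5p, with the same reads under both names, and miR-219a-5p (0.92, 0.92 and 0.90), at 1.23 to 11.0 RPM. The r values of miR-206-3p rest on its 10 reads, with 0 reads in both pools.

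miR-1981-5p stood at 19.2, 108 and 83.1 RPM in CR mitochondria, at 17.5, 96.8 and 62.6 RPM in AL mitochondria, at 46.3 RPM in the CR pool and at 28.0 RPM in the AL pool. miR-542-3p stood at 54.1, 138 and 93.4 RPM in CR mitochondria and at 56.3, 149 and 90.0 RPM in AL mitochondria, with 49.0 RPM in the CR pool and 59.6 RPM in the AL pool. Both were lowest in replicate 1 and highest in replicate 2 of each diet, like miR-1a-3p and miR-133a-3p, over a range of 5.52-fold to 5.63-fold within a diet for miR-1981-5p and 2.55-fold to 2.64-fold for miR-542-3p. Neither differed between the diets in mitochondria by limma-trend beyond the spread between libraries (0.23 and -0.04, adjusted p = 0.922 and 0.983).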

How the data were processed

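The authors deposited 1 table per library with RPM values, named tpm in the file headers, which sum to 1000000 with no scaling for length; names at 0 are left out and were read as 0. Reads were mapped with Bowtie to mm9, per the submitters' processing notes. How reads were assigned to names, mismatches and strand are not given in the sources used here. All values (100%) were whole multiples of the smallest in their library within 0.01 read, which gave the reads. Names that reached 1 RPM in 3 or more of the libraries compared were tested with limma-trend (limma 3.58.1, R 4.3.3) on log2(RPM + 1), a scale that understates changes of low names, with Benjamini-Hochberg adjustment over all of them and a threshold of 0.05. edgeR 4.0.16, DESeq2 1.42.0 and limma-voom on the recovered reads, other scalings, filters, a pseudocount of 0.5 RPM, a replicate block and leaving out each mitochondrial replicate were alternatives. The fit was tested on simulated data. Poisson and Clopper-Pearson intervals are exact (scipy 1.17.1, Python 3.11.15). Hairpins are from GENCODE M21, not from the authors' alignment. Besides the members, the text names every listed muscle miRNA and the 3 names most like each member. The members, lists and alternatives were chosen with earlier results of these data known.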

Additional observations from a re-analysis of the deposited data

How the results depend on the processing

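Values of miR-1b-5p equal those of miR-1a-3p under every setting. In mitochondria, 0 members passed between the diets under any alternative. Of 16 alternatives, 12 kept the direction of miR-1a-3p; the log2 difference of -0.22 became 0.0198 with DESeq2 size factors, 0.0336 with limma-voom and -1.09 to 0.54 with 1 replicate left out. That of miR-133a-3p (-0.12) became 0.0253 with TMM factors, 0.0658 with DESeq2 size factors, 0.0220 with edgeR, 0.0564 with DESeq2, 0.161 with limma-voom and -0.69 to 0.45 with 1 replicate left out. The sign of miR-206-3p held in all 12 alternatives that kept it, and it was not tested at a filter of 10 RPM, without CR replicate 3, or without AL replicate 2 or 3; DESeq2 gave it no adjusted p. The 2 calls among all names became 10 without a filter, 8 at 10 RPM, 5 with TMM factors, 5 with DESeq2 size factors, 4 without miR-122 in the total, 7 with edgeR, 11 with DESeq2, 5 with limma-voom and 0 to 6 with 1 replicate left out. The cause of these changes was not tested. With the replicate number as a block, 3 names were called and no member (limma adjusted p = 0.714 for miR-1a-3p, 0.926 for miR-133a-3p and 0.319 for miR-206-3p). The 95% interval of miR-1a-3p was then -0.85 to 0.42 (SE 0.28), against -1.67 to 1.24 without the block. Its width thus depends on whether the numbers mark pairs, which the labels do not say. Over all tested names, deviations of same-numbered libraries correlated at 0.36, 0.08 and 0.11, and CR replicate 3 was closer to AL replicate 2 (0.22) than to its own number, so the numbers were not taken as pairs.

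Against whole liver, each alternative that could be fitted kept the sign of miR-1a-3p and miR-133a-3p; that of miR-206-3p was fixed by the pools at 0, and it was not tested within 1 diet, at 10 RPM, without CR replicate 3, or without AL replicate 2 or 3. edgeR passed miR-1a-3p (1.69), and edgeR (4.27) and limma-voom (3.27) passed miR-206-3p, whose size depends on the prior count since both pools are at 0. Tested within 1 diet, 76 (CR) and 57 (AL) names passed against 134, with fewer libraries. The interaction, with 1 replicate left out, ran from -1.52 to 0.11 for miR-1a-3p and from -0.38 to 0.75 for miR-133a-3p; without a filter 129 names passed and no member. The pool ratio of miR-1a-3p (1.36) was 1.35 with 1 RPM added, 1.52 with DESeq2 size factors and 1.68 with TMM factors, where its interval no longer included 1 in the last 2; that of miR-133a-3p kept an interval that included 1 under both scalings. The few reads of miR-133a-3p and miR-206-3p limit what could be detected for them.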
